A study of Mus musculus with 12 samples.

Results

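Collagen chains are the subject of these measurements in mouse heart muscle. They were chosen by name, as every gene on the array called Col, a number, a and a number, and 44 genes with 91 probes met this rule among 37074 gene names and 56605 probes. Of the 44 genes, 11 encode fibrillar chains, 6 basement membrane chains and 27 other chains. The hearts came from 12 male C57BL6/J mice of 5 months, in 4 groups of 3, with 1 array per mouse. Control mice (C) had neither agent. Diabetic mice (D) had received streptozotocin, a toxin of the insulin-producing beta cells, at 50 mg/kg per day on 5 days, and mice with blood glucose of at least 17 mM were taken as diabetic. The groups C+P and D+P were control and diabetic mice given pargyline, an inhibitor of monoamine oxidase (MAO), at 50 mg/kg per day for 12 weeks. All mice entered the study at 6 to 7 weeks of age, and no group carried an altered gene.

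Collagens are secreted proteins whose chains wind into a helix, for which glycine must recur at regular intervals along each chain. Fibrillar collagens, mainly type I and type III in the heart, form the tension-bearing fibrils laid down by fibroblasts, and their accumulation is known as fibrosis. Type IV forms the sheet under endothelial cells and around each cardiomyocyte, type VI makes beaded filaments next to these sheets, and many of the remaining chains sit on fibrils, on basement membranes or in the cell membrane.

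The glycine repeat can be read in the array itself. A glycine codon, GGN, recurred every 3 codons along the whole probe in 4 of the 91 collagen probes, which is 4.40%, and in 5 of 56514 other probes, which is 0.00885%. These 4 probe sequences are printed because they are the collagen signature in the designed sequences, with the glycine codons in capitals.

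Col5a3: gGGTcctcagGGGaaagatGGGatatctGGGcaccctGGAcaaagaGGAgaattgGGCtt
Col11a2: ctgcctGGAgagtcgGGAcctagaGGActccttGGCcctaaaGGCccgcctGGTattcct
Col6a3: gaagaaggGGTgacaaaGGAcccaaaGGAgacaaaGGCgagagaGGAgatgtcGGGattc
Col15a1: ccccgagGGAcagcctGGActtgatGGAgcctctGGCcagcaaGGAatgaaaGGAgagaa

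In the mm9 coordinates of the array files the Col5a3 probe spans chr9:20590066-20590795 on the minus strand and the Col11a2 probe chr17:34189287-34189453 on the plus strand. The Col6a3 probe spans chr1:92689602-92690594 on the minus strand and the Col15a1 probe chr4:47283786-47283845 on the plus strand. The Col5a3, Col11a2 and Col6a3 spans are longer than the 60 bases of a probe. The Col5a3 and Col11a2 probes were well above background on 0 arrays, the Col6a3 probe on 9 and the Col15a1 probe on 8. Only the Col15a1 probe was the one on which its gene is read below.

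Detection is given by class. Well above background, a flag of the scanner software, is used here for a spot clearly brighter than the empty array. On all 12 arrays, 17 of the 44 collagen genes had a probe that met it. They were 6 of 11 fibrillar genes (Col1a1, Col1a2, Col2a1, Col3a1, Col5a1 and Col5a3), 3 of 6 basement membrane genes (Col4a1, Col4a2 and Col4a5) and 8 of 27 other genes (Col6a1, Col6a2, Col6a3, Col7a1, Col8a1, Col13a1, Col16a1 and Col18a1). A further 14 genes were well above background on 0 arrays: fibrillar Col24a1, basement membrane Col4a3 and Col4a6, and Col6a4, Col6a5, Col6a6, Col9a1, Col9a3, Col10a1, Col12a1, Col14a1, Col23a1, Col25a1 and Col26a1. The remaining 13 genes met the flag on some arrays. Among them, Col4a4, a chain of the kidney-type network, met it on 11 arrays, Col5a2 on 9, Col9a2 and Col15a1 on 8 each, and Col17a1 on 5.

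**Figure D1:**
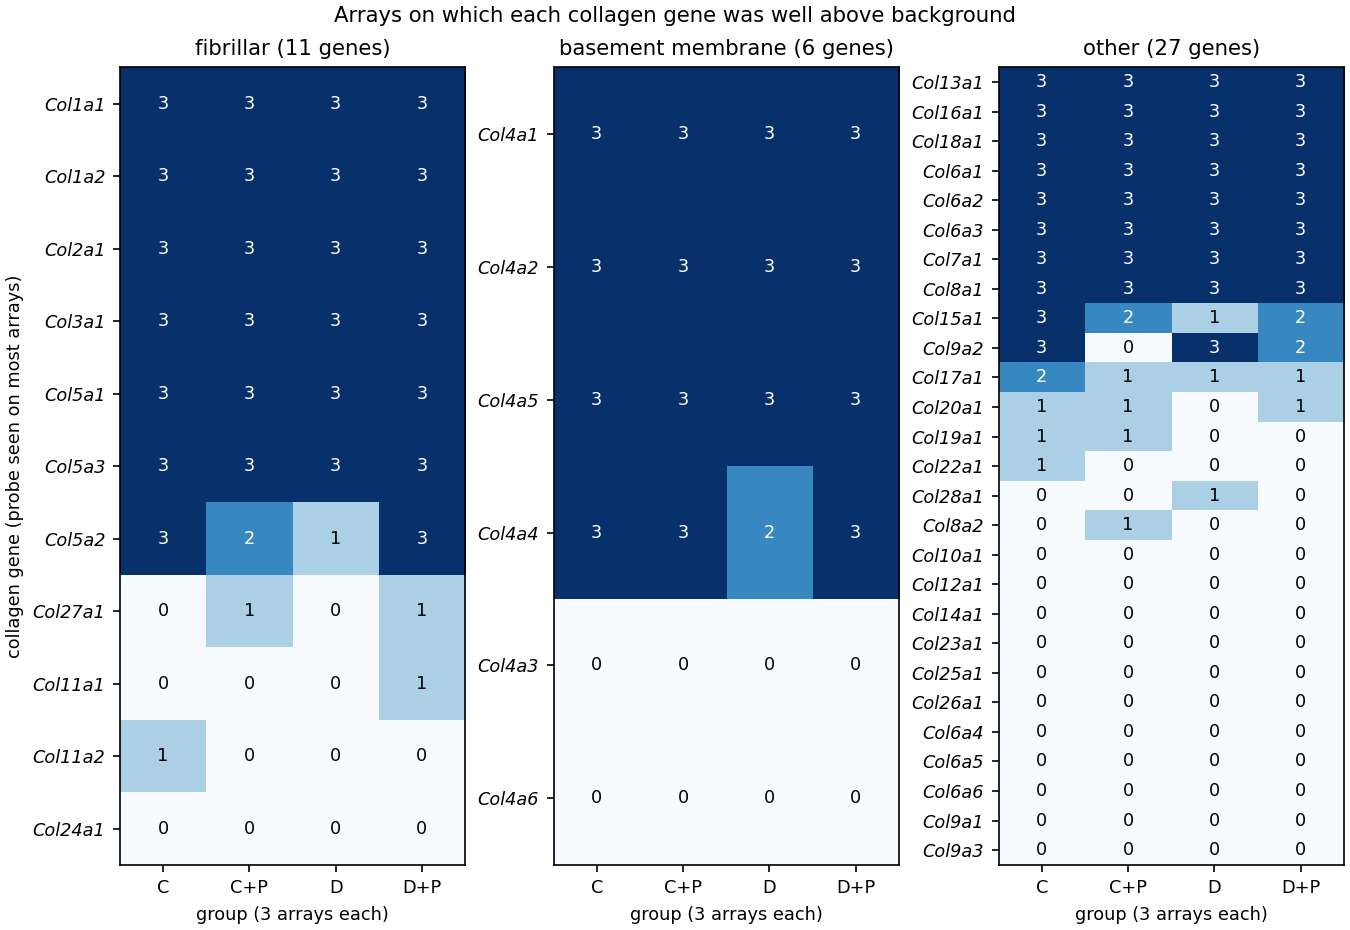
Number of arrays, of 3 per group, on which each of the 44 collagen genes was well above background (columns are groups, rows are genes, each on the probe seen on most arrays). A full row of 3 appears for 17 genes, and Col9a2 shows 0 of 3 in C+P where C and D each show 3 of 3.

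Tests were run on probes whose spots were flagged as positive and significant in each group on 50% or more of its arrays. This left 30859 probes of the array, and 29 of the 44 collagen genes: 8 fibrillar, 4 basement membrane and 17 other genes. The 15 genes that were not tested were Col11a1, Col11a2, Col24a1, Col4a3, Col4a6, Col6a4, Col6a5, Col6a6, Col8a2, Col9a1, Col9a3, Col10a1, Col12a1, Col19a1 and Col28a1. Each gene was read on its brightest tested probe. All values below are log2 quantile-normalized intensities. Levels of different chains are not set against each other, because each probe has its own brightness. Adjusted p-values are from limma with Benjamini-Hochberg adjustment over all tested probes. In tissue RNA, fewer cells of a type and less RNA per cell cannot be told apart.

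The layout of the arrays limits every comparison. C and D lay on slide 1 and C+P and D+P on slide 2, so pargyline and slide cannot be told apart. Non-diabetic samples lay in row 1 and diabetic samples in row 2 of both slides, so diabetes and slide row cannot be told apart. The precision of every value is limited by the number of arrays, 3 per group. The median coefficient of variation of repeated spots ran from 3.89% to 23.2%, and the scanner software placed C 1, C+P 1, D 1, D+P 1 and D+P 3 outside its accepted range. All 9 cardiomyocyte markers were tested, and their mean level per array was 15.6 to 16.0 over the 12 arrays. Values without these 5 arrays are given together after the comparisons, and for some genes beside their values.

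Diabetes left no collagen gene past the adjusted threshold. The test of diabetes averaged over pargyline, which uses all 12 arrays, called 0 of 29 collagen genes at an adjusted p below 0.05, where 0.107% of all tested probes were called. At an unadjusted p below 0.05, Col23a1 and Col9a2 were higher and Col22a1 and Col4a1 lower. This is 2 of 29 genes in each direction, or 4 in all, where the background was 5.93% of probes higher and 5.46% lower. The estimate was above 0 for 11 of 29 collagen genes, beside 48.5% of all tested probes. In 0 collagen genes did the diabetic arrays lie apart from the others in both comparisons, beside 1.21% of probes higher and 1.29% lower. The median change was -0.07 over the collagen genes and -0.01 over all probes. By class it was -0.05 for the fibrillar, -0.12 for the basement membrane and -0.05 for the other chains. Leaving out single arrays moved these medians to between -0.14 and -0.02, between -0.19 and -0.06, and between -0.11 and 0.02, the last turning its sign.

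**Figure D2:**
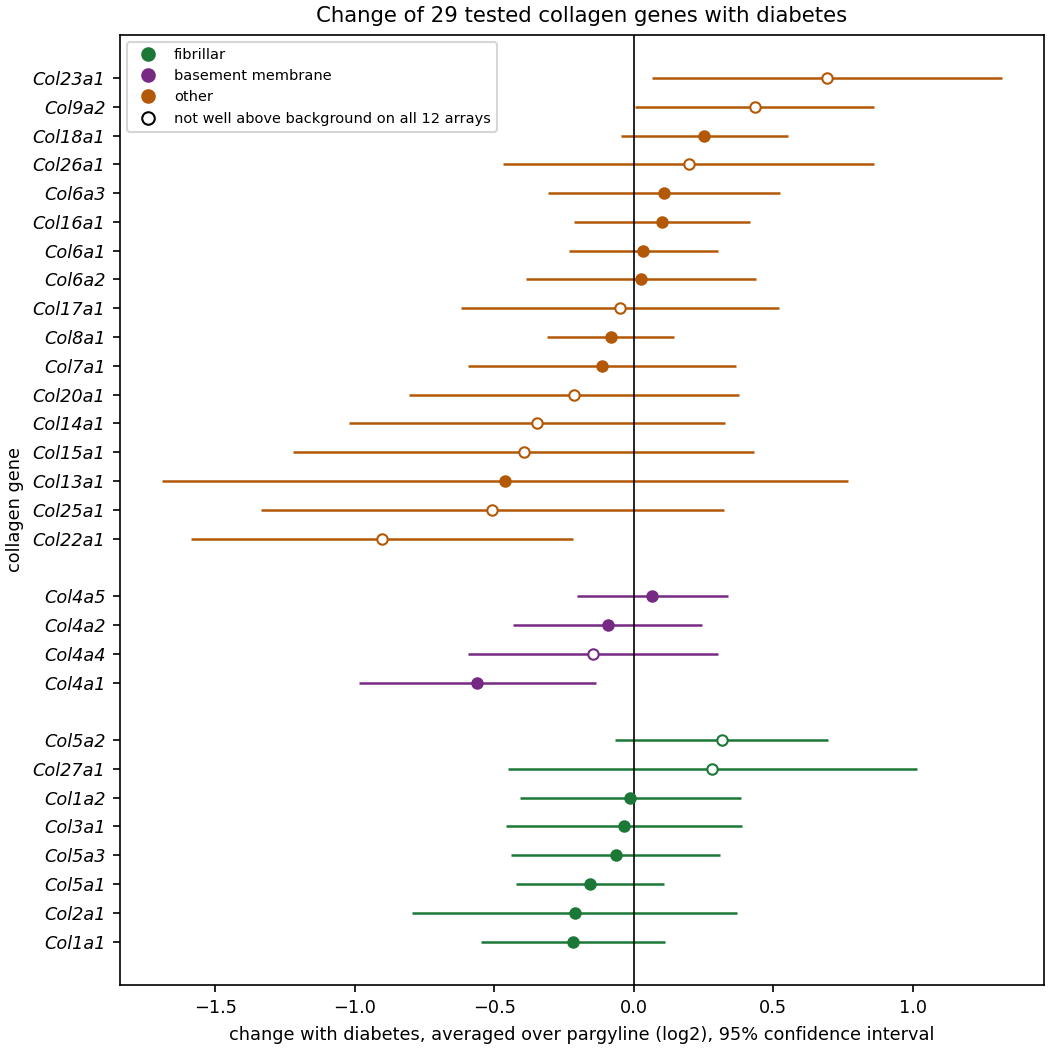
Change with diabetes averaged over pargyline, in log2 units (x axis), for the 29 tested collagen genes by class (y axis), with limma's 95% confidence interval as a bar. Open points are genes not well above background on all 12 arrays, and the intervals of Col23a1, Col9a2, Col4a1 and Col22a1 lie to 1 side of 0.

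The main fibril chains Col1a1, Col1a2 and Col3a1 had averaged estimates from -0.22 to -0.01. Col1a1 encodes the more abundant chain of type I collagen. It read 10.35, 10.58 and 10.50 in C, 10.69, 10.44 and 10.50 in C+P, 9.92, 10.38 and 10.61 in D, and 10.61, 10.03 and 10.19 in D+P. The groups overlap, and 1 array of D and 1 of D+P are the lowest. Its averaged change was -0.22 (SE 0.15, 95% confidence interval -0.55 to 0.11, adjusted p = 0.607 by limma). It ran from -0.30 without D+P 1 to -0.12 without D 1. This probe was spotted 10 times per array, and the SD between its spots was 0.44 on D 1 against 0.06 on D 3, so the lowest value is also the least precise one.

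Col1a2, the partner chain of type I, read 12.45, 12.30 and 12.31 in C, 12.84, 12.27 and 12.51 in C+P, 12.76, 12.20 and 12.30 in D, and 12.98, 12.08 and 12.30 in D+P. The 3 arrays of slide column 1 (C+P 1, D 1 and D+P 1) hold the 3 highest values, 12.76 to 12.98, against at most 12.51 on the other 9 arrays. Col16a1, a fibril-associated chain, has the same order, with 9.09 to 9.27 in that column and at most 8.88 elsewhere. These were 2 of 29 collagen genes, and 1.87% of all tested probes with complete values were highest in that column. The averaged change of Col1a2 was -0.01 (SE 0.18, interval -0.41 to 0.38), and its sign turned under other scalings of the arrays, to 0.0041 with the 75th percentile.

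Col3a1, the chain of type III, which forms the finer fibrils, read 11.40, 11.24 and 11.33 in C and 10.89, 11.39 and 11.41 in C+P. It read 10.70, 11.51 and 11.63 in D, where 1 array is the lowest and 1 the highest of all 12, and 11.58, 10.90 and 11.12 in D+P. The averaged change was -0.04 (SE 0.19, interval -0.46 to 0.39). A second tested probe of Col3a1, well above background on 6 arrays, gave 0.35 (SE 0.21), and the mean over both probes gave 0.16, so the sign of this gene depends on the probe.

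Type V collagen is incorporated in small amounts into type I fibrils and starts their assembly. Its Col5a1 chain read 8.84 ± 0.01 (SD, n = 3) in C and 8.80 ± 0.18 in D, and with pargyline 9.16 ± 0.28 in C+P and 8.88 ± 0.11 in D+P. Its averaged change was -0.16 (SE 0.12), and 0.0026 without the 5 arrays outside the accepted range. Col5a2 read 5.01, 5.13 and 5.33 in C and 5.42, 5.79 and 5.68 in D, with every D array above every C array. It was the fibrillar chain with the highest estimate in D against C, 0.47 (SE 0.24, adjusted p = 0.505 by limma). In C+P it read 5.97, 5.18 and 5.10, and in D+P 5.82, 5.61 and 5.29, which overlap. The averaged change of Col5a2 was 0.31 (SE 0.17, adjusted p = 0.524). Its adjusted p was lowest, 0.113, when arrays were weighted by their quality, and its spots were well above background on 3 arrays of C, 2 of C+P, 1 of D and 3 of D+P.

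**Figure D3:**
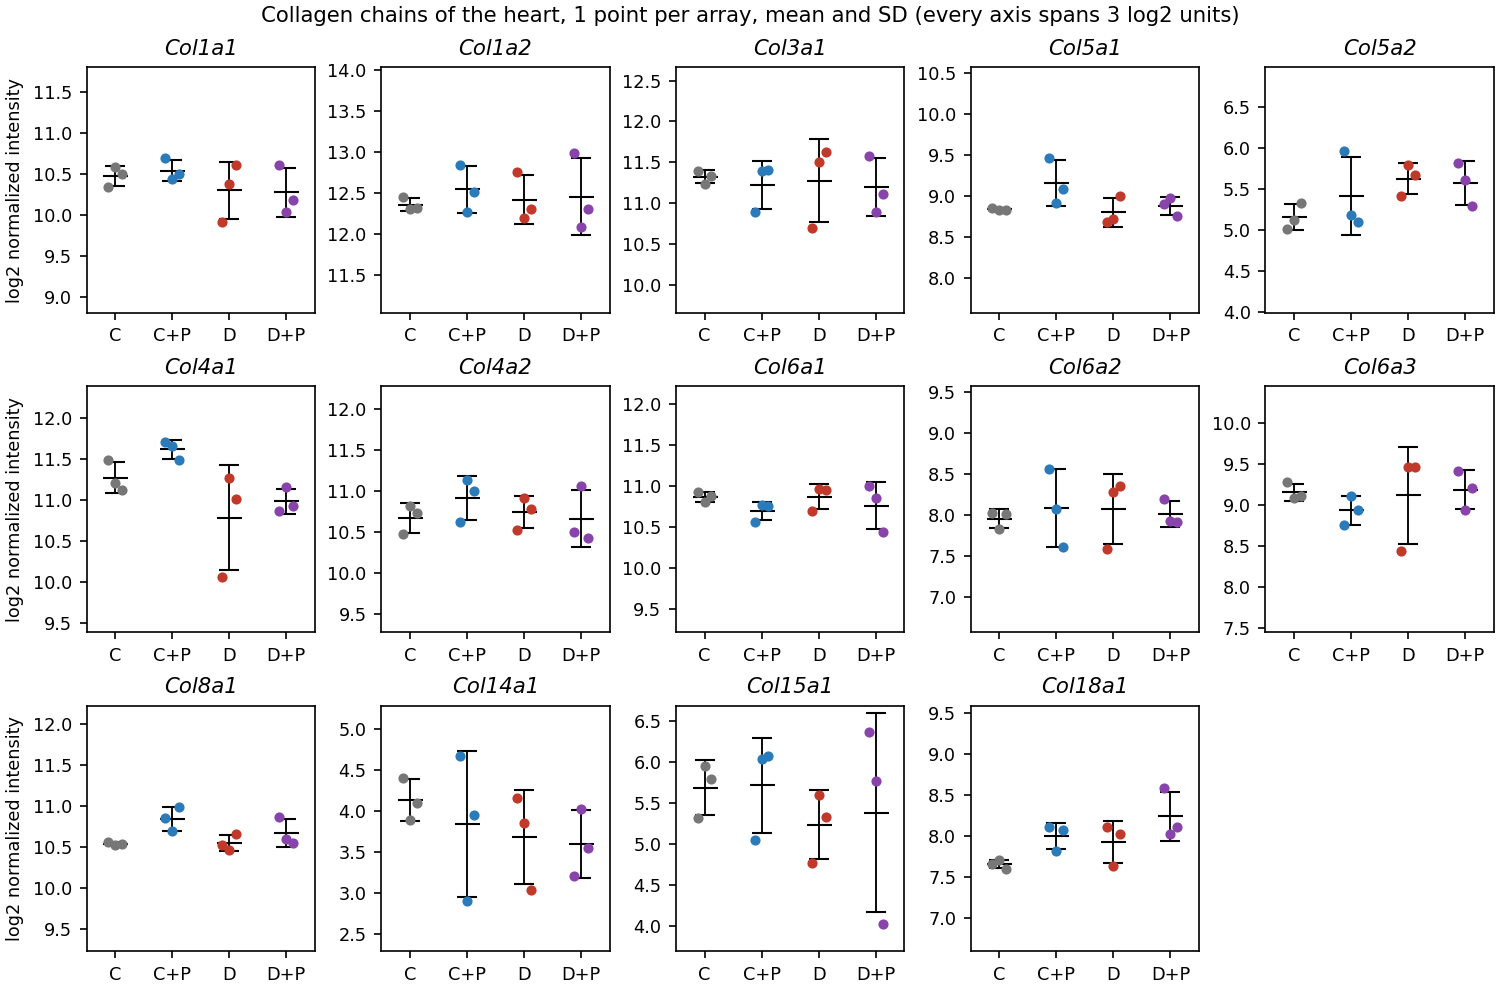
Log2 normalized intensity (y axis, spanning 3 units in every panel) of 14 collagen chains in the 4 groups (x axis), with 1 point per array and the mean and SD of 3 arrays in black. The C arrays lie close together for Col1a2, Col5a1, Col8a1 and Col18a1, and for Col4a1 the SD is widest in D, at 0.64.

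The basement membrane chains Col4a1 and Col4a2 had different estimates. They encode the partners of the common type IV network, and their genes are neighbours on opposite strands. Col4a1 read 11.49, 11.21 and 11.12 in C, 11.71, 11.66 and 11.49 in C+P, 10.06, 11.27 and 11.02 in D, and 10.87, 11.16 and 10.93 in D+P. Every D+P array was below every C+P array, while D overlapped C. The probe lies at chr8:11199009-11199068 on the minus strand (mm9). Its averaged change was -0.56 (SE 0.19, interval -0.99 to -0.14, unadjusted p = 0.0146, adjusted p = 0.333 by limma), or 1.47-fold lower with diabetes.

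Array D 1 weighs heavily in the Col4a1 value. The change in D against C was -0.49 (SE 0.27), and without D 1 it was -0.13. Without the 5 arrays outside the accepted range it was -0.02 in D against C and -0.22 averaged over pargyline. In D+P against C+P the change was -0.63 (SE 0.27, adjusted p = 0.651 by limma). Leaving out any single array kept the averaged change between -0.68 and -0.38.

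Col4a2 read 10.68 ± 0.18 (SD, n = 3) in C and 10.74 ± 0.20 in D, and with pargyline 10.92 ± 0.26 in C+P and 10.66 ± 0.35 in D+P. Its 12 arrays ran from 10.43 to 11.13. All 4 groups overlap. The averaged change was -0.09 (SE 0.15, interval -0.43 to 0.24), from -0.19 without D+P 2 to -0.03 without D+P 3. The difference between the changes of Col4a1 and Col4a2 was not tested. Col4a5, a chain of the second type IV network, gave 0.07 and Col4a4 gave -0.15, with adjusted p-values of 0.864 and 0.812 by limma. Their dimmer tested probes gave 0.31 for Col4a5 and -1.04 for Col4a4, with adjusted p-values of 0.598 and 0.452 by limma. That of Col4a4 was well above background on 3 arrays of C, 2 of C+P, 0 of D and 1 of D+P.

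The beaded filament chains Col6a1, Col6a2 and Col6a3, which assemble together into type VI collagen, gave 0.03, 0.03 and 0.11 for diabetes averaged over pargyline. Their SEs were 0.12, 0.19 and 0.19, and all 3 signs turned with background correction by normexp, to -0.17, -0.0036 and -0.0033. Col6a1 had a narrow range, from 10.44 to 10.99 over the 12 arrays. Col8a1, the short chain of a network found around vessels, read 10.54 ± 0.02 (SD, n = 3) in C and 10.55 ± 0.10 in D. With pargyline it read 10.84 ± 0.15 in C+P and 10.67 ± 0.17 in D+P. Its averaged change with diabetes was -0.08, with an interval from -0.31 to 0.15. It ran from -0.13 without D+P 1 to -0.05 without C+P 3.

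Col15a1 and Col18a1 encode chains of the basement membrane zone that release endostatin-like fragments. Col18a1 read 7.66, 7.70 and 7.60 in C, 8.10, 7.82 and 8.07 in C+P, 8.11, 7.63 and 8.03 in D, and 8.58, 8.02 and 8.11 in D+P. The C arrays were the low end of this gene, and 1 D array fell among them. The averaged change was 0.25 (SE 0.14, interval -0.05 to 0.55, adjusted p = 0.515 by limma). Without the 5 arrays outside the accepted range it was 0.13. Col15a1 ranged from 4.02 to 6.36, both in D+P, and its averaged change was -0.40 (SE 0.37). The change ran from -0.64 without D+P 1 to -0.05 without D+P 3. Col14a1, a fibril-associated chain of soft tissue, was well above background on 0 arrays, and no fold is given. Its fitted difference of -0.35 (SE 0.30) turned to 0.04 when arrays were weighted by quality, and ran from -0.58 without C+P 2 to -0.14 without C+P 1.

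Col23a1 and Col22a1, the highest and the lowest of the 29 averaged estimates, were read from dim probes. Col23a1, a transmembrane chain, read 4.39, 3.82 and 3.60 in C and 4.32, 4.67 and 5.75 in D. It read 4.21, 4.40 and 3.20 in C+P and 4.50, 4.16 and 4.39 in D+P. The groups overlap, and no array was well above background, so no fold is given. The fitted difference was 0.97 in D against C and 0.69 averaged over pargyline (adjusted p = 0.435 and 0.402 by limma). The first ran from 0.55 without D 3 to 1.27 without D 1, and was 1.496 without the 5 arrays outside the accepted range. Its lowest value over all alternatives was 0.19.

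Col22a1, a chain of tissue junctions, read 5.19, 5.10 and 4.55 in C+P and 3.07, 3.64 and 4.08 in D+P, with no overlap. Only 1 of the 12 arrays, in C, was well above background, where it read 4.56, 4.11 and 5.14, and D read 3.13, 4.72 and 4.59. The fitted difference was -1.35 in D+P against C+P and -0.90 averaged over pargyline (adjusted p = 0.519 and 0.333 by limma). Over all alternatives the first ran from -1.59 to -0.33 and the second from -1.04 to -0.22.

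Col9a2, a chain known from cartilage, read 5.88, 5.67 and 5.49 in C, 4.90, 5.32 and 5.28 in C+P, 6.09, 5.77 and 6.24 in D, and 6.24, 5.07 and 5.72 in D+P. All 3 C+P arrays were below every C array and not well above background. The fitted difference in C+P against C had an adjusted p of 0.9998 by limma. With the C+P values raised, where lower, to the smallest signal well above background on their arrays, mean C was 1.21-fold mean C+P. The averaged change with diabetes was 0.43 (SE 0.19, unadjusted p = 0.0484, adjusted p = 0.434 by limma). Without the 5 arrays outside the accepted range it was 0.10.

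The 2 simple comparisons of diabetes gave the same counts of called genes. In D against C, 0 of 29 collagen genes passed the adjusted threshold by limma, beside 0.00648% of all probes. Only Col23a1 had an unadjusted p below 0.05, a count of 1 higher and 0 lower, beside 5.13% and 5.66% of all probes. The methods' t-test with Benjamini-Hochberg adjustment also called 0, beside 0% of all probes, with 1 gene at an unadjusted p below 0.05, beside 11.4%. The lowest estimates were -0.71 for Col20a1, a fibril-associated chain, and -0.49 for Col4a1. That of Col20a1 is a fitted difference near background (1 of 3 C and 0 of 3 D arrays well above it). It ran from -1.07 without D 2 to -0.30 without D 1. The highest estimate after Col23a1 was that of Col5a2. The estimate was above 0 for 15 of 29 genes, beside 48.9% of all probes. Groups did not overlap for 1 gene higher, Col5a2, and 0 lower, beside 11.9% and 10.4% of all probes.

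In D+P against C+P, 0 of 29 passed the adjusted threshold by limma, beside 0.0454% of all probes. Col22a1 and Col4a1 were lower at an unadjusted p below 0.05, or 2 lower and 0 higher, beside 3.79% and 3.67%. The methods' t-test with Benjamini-Hochberg adjustment called 0, beside 0.00324% of all probes, with 2 at an unadjusted p below 0.05, beside 6.55%. The groups did not overlap for the same 2 genes, both lower, beside 6.57% of all probes, and for 0 higher, beside 7.30%. The estimate was above 0 for 12 of 29 genes, beside 51.0%. These counts are of the brightest probe per gene. Over all 42 tested collagen probes, 4 were higher and 2 lower at an unadjusted p below 0.05, and 0 passed the adjusted threshold by limma. The 4 were the dimmer probes of Col3a1 (0.80), Col4a5 (0.70), Col13a1 (1.25) and Col26a1 (1.09), with adjusted p-values of 0.619, 0.642, 0.538 and 0.511 by limma, and that of Col26a1 was well above background on 0 arrays. The Col3a1 probe was well above background on 0 of 3 C+P and 2 of 3 D+P arrays, and the groups overlap. With its C+P values raised, where lower, to the smallest signal well above background on their arrays, mean D+P was 1.34-fold mean C+P. The groups did not overlap for 3 of the 42 probes higher, those of Col4a5, Col13a1 and Col26a1, and for 3 lower. The highest estimates were 0.84 for Col27a1, a fibrillar chain of cartilage, and 0.51 for Col9a2. The first ran from 0.37 without C+P 1 to 1.41 without C+P 3, and the second from 0.23 without D+P 1 to 0.81 without D+P 2. Col27a1 read 3.49, 4.26 and 5.58 in C+P and 5.55, 5.42 and 4.89 in D+P, which overlap, and 2 of 12 arrays were well above background. Col25a1, a transmembrane chain well above background on 0 arrays, had a fitted difference of -0.71. It ran from -1.17 without C+P 1 to -0.32 without C+P 2.

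Pargyline was compared in control and in diabetic hearts. In C+P against C, 0 of 29 collagen genes passed the adjusted threshold by limma, beside 0.0324% of all probes, and 0 had an unadjusted p below 0.05, beside 1.95% of probes higher and 2.48% lower. The methods' t-test with Benjamini-Hochberg adjustment called 0, beside 0.00324% of all probes, with 3 at an unadjusted p below 0.05, beside 7.69%. The estimate was above 0 for 20 of the 29 genes, beside 49.0% of all probes, with a median of 0.13 against -0.01. This held for 6 of 8 fibrillar, 3 of 4 basement membrane and 11 of 17 other genes, and for 19 to 22 of 29 genes over the alternatives with all 29. The slide cannot be told apart from pargyline in this count.

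In C+P against C, the groups did not overlap for 4 genes higher, Col5a1, Col5a3, Col8a1 and Col18a1, beside 7.35% of all probes. They did not overlap for 2 genes lower, Col6a1 and Col9a2, beside 8.0%. Col5a3, a minor chain of type V, read 9.12, 8.98 and 8.90 in C and 9.63, 9.49 and 9.14 in C+P, a difference of 0.42 (SE 0.24, adjusted p = 0.9998 by limma). Col8a1 differed by 0.30 (SE 0.15) and Col5a1 by 0.32 (SE 0.17). Col26a1, well above background on 0 arrays, had a fitted difference of -0.42, which turned to 0.05 with array weights and 0.14 without the 5 arrays outside the accepted range.

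In D+P against D, 0 of 29 passed the adjusted threshold by limma, beside 0% of all probes, and the methods' t-test with Benjamini-Hochberg adjustment also called 0, beside 0.00324%, with 0 at an unadjusted p below 0.05, beside 8.34%. By limma, 1 gene was higher at an unadjusted p below 0.05 and 0 lower, beside 6.85% and 6.43%. This was Col20a1, which read 3.42, 4.97 and 4.36 in D and 5.69, 5.20 and 5.51 in D+P, with no overlap. Such separation was seen for 1 collagen gene higher and 0 lower, beside 7.91% and 9.10% of all probes. For Col20a1, 1 of 3 D+P and 0 of 3 D arrays were well above background (adjusted p = 0.237 by limma). With the D values raised, where lower, to the smallest signal well above background on their arrays, mean D+P was 1.05-fold mean D. In C Col20a1 read 4.93, 5.43 and 4.54 and in C+P 4.76, 5.23 and 5.55. The estimate was above 0 for 13 of 29 genes, beside 49.9% of all probes. The lowest fitted differences were -0.56 for Col23a1 and -0.55 for Col22a1. The first ran from -0.86 without D 1 to -0.14 without D 3, and the second from -1.06 without D 1 to -0.26 without D 2.

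The interaction asks whether the change with diabetes differed with pargyline. By limma, 0 of 29 collagen genes passed the adjusted threshold, beside 0.00648% of all probes, and 0 had an unadjusted p below 0.05, beside 4.12% higher and 2.91% lower. The estimate was above 0 for 11 of 29 genes, beside 49.6%. The largest estimates were 1.12 for Col27a1 and 1.00 for Col20a1, and -0.89 for Col22a1 and -0.63 for Col5a3. Col27a1, Col20a1 and Col22a1 were well above background on 2, 3 and 1 of the 12 arrays, so theirs are fitted differences near background. The SEs were 0.66, 0.53, 0.62 and 0.34. With single arrays left out, Col27a1 ran from 0.65 (C+P 1) to 1.69 (C+P 3). Col20a1 ran from 0.58 (D 1) to 1.36 (D 2), and Col22a1 from -1.40 (D 1) to -0.60 (D 2). Col5a3 ran from -0.81 (D+P 2) to -0.40 (D 1). The D+P samples enter the interaction and both comparisons named for them, and each of the 4 groups is shared by several comparisons, so their values are not independent of each other.

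Leaving out the 5 arrays outside the accepted range left 7 arrays, with D+P as a lone sample that is assumed to vary like the other groups. Of 37 named values, 25 then moved by over 1.5 times or had the opposite sign, and 0 collagen genes passed the adjusted threshold by limma. Averaged over pargyline, Col1a2 gave -0.18, Col3a1 -0.11, Col5a2 0.49, Col6a1 0.10, Col6a2 0.24 and Col22a1 -0.58. Col20a1 moved to -0.32 in D against C, to 0.54 in D+P against D and to 0.13 for the interaction. Col27a1 gave 0.50 in D+P against C+P and Col9a2 gave -0.28 in C+P against C. In D+P against D, Col23a1 gave -1.05 and Col22a1 -1.01.

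Col13a1, a transmembrane chain, had the widest range over the 12 arrays among the 29 tested genes on their brightest probes, 3.93. Wider ranges, 4.04 to 4.34, were seen in the dimmer tested probe of Col4a4 and in 1 untested probe each of Col11a1 and Col11a2. Its brighter probe was well above background on all 12 arrays and read 6.00, 7.75 and 8.97 in C, 8.42, 9.36 and 9.75 in C+P, 6.43, 6.87 and 8.21 in D, and 7.79, 9.93 and 8.26 in D+P. The range within C alone was 2.97. The estimates for pargyline were 1.60 in control and 1.49 in diabetic hearts (SE 0.79 each, adjusted p = 0.9998 and 0.431 by limma). They ranged from 0.82 to 2.30 and from 0.85 to 2.01 when single arrays were left out, and were 1.197 and 2.39 without the 5 arrays outside the accepted range. On slide 1 the arrays in columns 1 and 2 read 6.43, 6.00 and 6.87, all below those in columns 3 and 4, which read 7.75, 8.97 and 8.21. Slide 2 did not show that order, since the highest value of all, 9.93, lay in column 2 and D+P 3, in column 3, was below C+P 1, in column 1. With slide column as a random block the estimates were 1.59 and 1.46. That block used 1 correlation for all tested probes, -0.0257, so it cannot show what slide column does to this gene. The dimmer tested probe of the gene did not show that order. It gave -0.56 for pargyline in control and -0.01 in diabetic hearts. For diabetes averaged over pargyline it gave 0.98 (SE 0.29, adjusted p = 0.262 by limma), where the brighter probe gave -0.46.

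**Figure D4:**
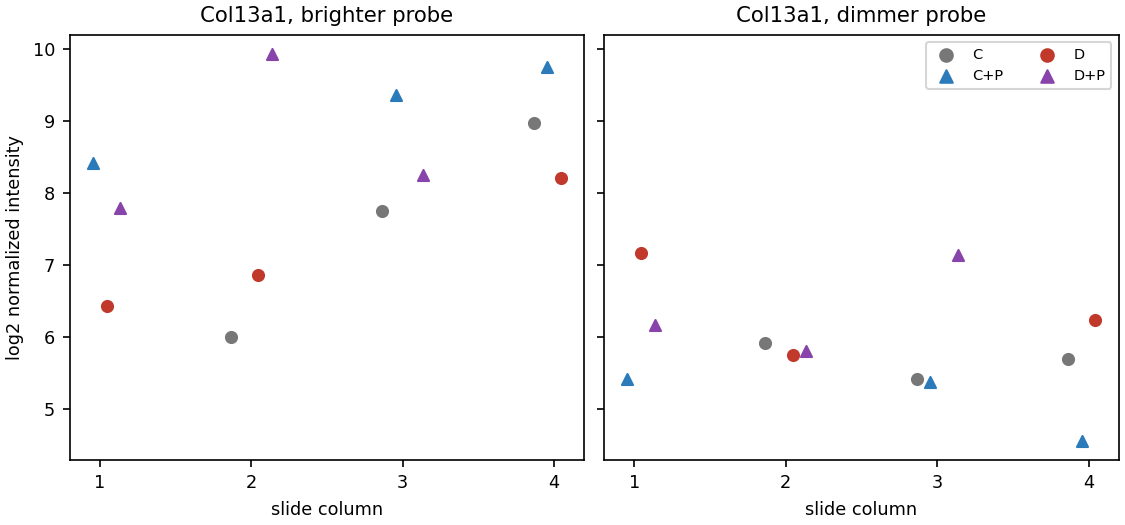
Log2 normalized intensity (y axis) of the brighter and the dimmer tested probe of Col13a1 by slide column (x axis), with 1 point per array, circles for slide 1 and triangles for slide 2. The brighter probe spans 6.00 to 9.93 and on slide 1 is lower in columns 1 and 2 than in columns 3 and 4, and the dimmer one does not show that order.

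Other genes with several probes disagreed as well. Of the 10 collagen genes with more than 1 tested probe, 5 had probes of opposite sign for diabetes averaged over pargyline: Col3a1, Col6a2, Col6a3, Col13a1 and Col15a1. In D against C this was so for 6 of 10 genes. Such signs were not counted for other genes of the array, so no share over all genes is given. Over all 42 tested probes, 3 were higher and 2 lower at an unadjusted p below 0.05 for the averaged change, beside 5.93% and 5.46% of all tested probes. There were 1 and 0 in D against C, beside 5.13% and 5.66%, and 1 and 0 for the interaction, beside 4.12% and 2.91%. For pargyline there were 3 and 0 in diabetic hearts, beside 6.85% and 6.43%, and 0 and 0 in control hearts, beside 1.95% and 2.48%. For Col1a1 all 3 tested probes had a negative averaged change.

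Pairs of chains were compared across arrays: 4 pairs that assemble into 1 molecule, and Col1a1 with Col3a1, the chains of the 2 main fibril collagens. Over the 12 arrays, Col1a1 and Col1a2 had r = 0.243 (permutation p = 0.452, adjusted over 5 pairs 0.549) and rho = 0.448 (permutation p = 0.146, adjusted 0.253). Within slide 1 (6 arrays) r was -0.865 and within slide 2 it was 0.876, and without the 2 arrays farthest from the median, D 1 and D+P 2, it was 0.546. Col1a1 and Col3a1 had r = 0.608 (permutation p = 0.0339, adjusted 0.170) and rho = 0.399 (permutation p = 0.202, adjusted 0.253). Within the slides r was 0.827 and 0.397, and without the same 2 arrays it was 0.00655, so this relation rests on them. Leaving out only C+P 1, which lies apart in this pair, gave r = 0.889 with an adjusted permutation p of 0.003.

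Col4a1 and Col4a2 had r = 0.44 (permutation p = 0.151, adjusted 0.377) and rho = 0.42 (permutation p = 0.176, adjusted 0.253), with 0.319 and 0.553 within the slides and 0.554 without D 1 and C+P 1. Col5a1 and Col5a2 had r = 0.379 (permutation p = 0.232, adjusted 0.387) and rho = 0.119 (permutation p = 0.717, adjusted 0.717), with -0.0487 and 0.519 within the slides and 0.147 without C+P 1 and C+P 3. Col6a1 and Col6a2 had r = 0.193 (permutation p = 0.549, adjusted 0.549) and rho = 0.448 (permutation p = 0.146, adjusted 0.253), with 0.954 and -0.0885 within the slides and 0.865 without D+P 3 and C+P 1. Of deviations from the group means, r was 0.247 for Col1a1 and Col1a2, 0.681 for Col1a1 and Col3a1, 0.366 for Col4a1 and Col4a2, 0.735 for Col5a1 and Col5a2 and 0.261 for Col6a1 and Col6a2, given with no test. Of the 5 pairs, 0 passed after Benjamini-Hochberg adjustment over the 12 arrays.

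**Figure D5:**
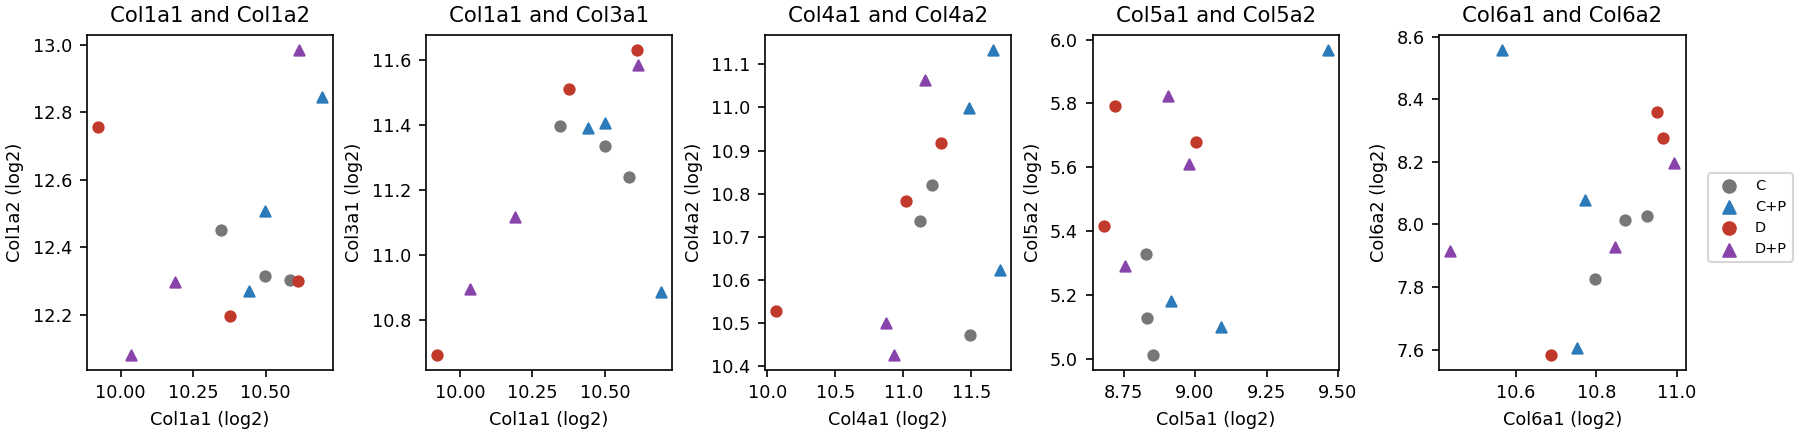
Log2 normalized intensities of the 5 pairs of chains (1 chain per axis), 4 of 1 molecule each and Col1a1 with Col3a1, with 1 point per array, circles for slide 1 and triangles for slide 2. The lowest Col1a1 value and the lowest Col4a1 value belong to 1 D array, and r over the 12 arrays runs from 0.193 to 0.608.

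The upstream sequences of the collagen genes were not set apart by the common promoter motifs. RefSeq entries (GRCm38.p6) of the 250 bases before the gene start were matched by symbol for 35 of the 44 genes, with 38 entries. The letters CCAAT, on either strand, were found in 13 of the 38, or 34.2%, beside 33.8% of all 32851 promoters. The letters TATAAA, on either strand, were found in 5, or 13.2%, beside 12.4%.

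The enzymes and carriers that make collagen were read from a list of 27 genes, of which 25 were tested. For diabetes averaged over pargyline 0 of 25 passed the adjusted threshold by limma, 0 were higher and 2 lower at an unadjusted p below 0.05, and the median change was -0.05. For this and the lists that follow, the background was 5.93% of all tested probes higher and 5.46% lower. P4ha2, a subunit of the enzyme that hydroxylates collagen prolines, read 11.11, 11.33 and 11.19 in C and 11.37, 11.36 and 11.33 in C+P. In the diabetic groups it read 10.59, 10.47 and 10.66 in D and 10.91, 10.41 and 10.48 in D+P. All 6 diabetic arrays were below all 6 others. Within both comparisons of diabetes, D with C and D+P with C+P, the diabetic arrays lay below without overlap for 1.29% of all tested probes. The averaged change was -0.70 (SE 0.11, adjusted p = 0.057 by limma). Serpinh1, the collagen-specific chaperone of the endoplasmic reticulum, read 11.95, 11.81 and 11.97 in C, 11.90, 12.24 and 12.14 in C+P, 11.55, 11.68 and 11.71 in D, and 11.97, 11.23 and 11.65 in D+P. Its averaged change was -0.37 (SE 0.14, adjusted p = 0.357 by limma), and D+P overlapped C+P.

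Among 12 tested profibrotic signals, 0 passed the adjusted threshold by limma, and 1 was higher and 0 lower at an unadjusted p below 0.05 for diabetes averaged over pargyline. This was Ccn2, the connective tissue growth factor. It read 10.30, 10.36 and 10.30 in C, 11.67, 10.87 and 10.70 in C+P, 12.76, 12.19 and 11.45 in D, and 11.08, 12.07 and 11.77 in D+P. All D arrays were above all C arrays, while D+P and C+P overlapped. The change with diabetes was 1.82 without pargyline and 0.56 with it (SE 0.37 each), and 1.19 averaged (SE 0.26, adjusted p = 0.142 by limma). The interaction was -1.26 (SE 0.52, adjusted p = 0.701 by limma). Of 9 tested collagen receptors and uptake genes, 0 passed, with 0 higher and 2 lower at an unadjusted p below 0.05, and of 15 tested basement membrane proteins other than collagens 0 passed, with 0 at an unadjusted p below 0.05. The receptor Lair1, carried by immune cells, read 6.51, 6.27 and 5.75 in C, 6.92, 5.61 and 5.72 in C+P, 3.11, 5.91 and 4.47 in D, and 3.30, 4.37 and 5.15 in D+P (adjusted p = 0.234 for the averaged change by limma). It was well above background on 7 of the 12 arrays, so no fold is given.

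Markers of the cells that could carry these transcripts were read for diabetes averaged over pargyline. All 10 fibroblast markers were tested, 0 passed the adjusted threshold by limma, 3 were higher and 0 lower at an unadjusted p below 0.05, beside 5.93% and 5.46% of all probes, and the median change was 0.11. Their mean level per array was 10.5 to 10.6 in C, 10.5 to 10.7 in C+P, 10.4 to 10.8 in D and 10.6 to 10.9 in D+P. All 7 macrophage markers had estimates below 0, where 48.5% of all probes were above 0. Of them 5 had an unadjusted p below 0.05, beside 5.46% of all probes lower, and 0 passed the adjusted threshold by limma. Their mean level was 9.57 to 10.05 in C, 9.63 to 10.26 in C+P, 9.26 to 9.62 in D and 9.17 to 9.38 in D+P, and 0 of the 7 were below background on every array. Of the 7 endothelial and 8 smooth muscle and pericyte markers, 0 had an unadjusted p below 0.05, and 0 passed by limma. The part of these cell markers in the collagen values was not tested.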

How the data were processed

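RNA of 12 mouse hearts was measured on single-colour Agilent arrays, 1 per mouse. Per the labels, 200 ng of total RNA with an integrity number above 7 was labelled with Cy3. The file headers name Feature Extraction 12.0.0.7. The deposited scanner files hold spot intensity on a linear scale, background-subtracted and corrected for trends within the array by that software. Flags of 0 or 1 per spot come with them. The deposited value table of the series holds intensity on a linear scale after quantile normalization by the authors and was used as an alternative. All its 47757 rows matched a probe, each column ranked its probes as its own array did (rho of 1, at most 0.9643 with another array), and the array medians ran from 41.8 to 41.9, so its scale is known and no array was centred on 0.

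Here log2 intensities of non-control spots were taken, outlier spots left out, arrays quantile-normalized and repeated spots averaged. Probes flagged positive and significant in each group on 50% or more of its arrays were tested with limma 3.58.1 in R 4.3.3 (statmod 1.5.0, and version 1.17.8 of data.table), 1 mean per group over 12 arrays, two-sided, with Benjamini-Hochberg adjustment over 30859 probes and a threshold of 0.05. Permutation tests used 100000 resamples. Python 3.11.15, pandas 2.3.3, numpy 2.4.6, scipy 1.17.1 and matplotlib 3.10.9 were used. The fit was tested on simulated data. The planted changes were larger than any averaged collagen estimate, so the simulation does not show whether smaller changes would be called. Groups came from the labels, each array being a separate mouse. An exact permutation test of 3 against 3 cannot go below 0.1.

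The members and the gene lists were chosen with earlier results of these data known. Named genes were 14 chains of the heart matrix whatever their values, the 2 highest and 2 lowest estimates per comparison and any past the threshold. Values of P4ha2, Serpinh1, Ccn2, Lair1 and Col16a1 were chosen after they were seen. Lists of cardiomyocyte, atrial, mesothelial, fat cell, cartilage and valve and Schwann cell markers were also read; 0 of their genes passed in any comparison by limma. RefSeq GRCm38.p6 was used for names and upstream sequences. Alternatives were other scalings and background corrections, the value table, missing values, filters, array weights, slide and slide column as blocks, fewer arrays, the methods' t-test, a replicate block, the mean over probes, leaving out single arrays and, chosen after seeing the data, leaving out 5 arrays.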

Additional observations from a re-analysis of the deposited data

Results flagged for a closer look

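Signal appeared in 5 of the 49 collagen probes that no comparison used, because in a treated group more arrays were well above background than in C. This is 10.2%, near the 8.27% of all 25746 untested probes. The rule takes whichever of the 3 treated groups had most such arrays, so it favours them over C. In the other direction, more C arrays than arrays of any treated group were well above background for 1 collagen probe, or 2.04%, beside 2.33% of all untested probes. It was the Col11a2 probe A_55_P2507485, seen on 1 C array at 7.10 and on 0 others. The Col3a1 probe A_55_P2717454 was well above background on 2 of 3 D+P arrays, the highest at 6.12 (log2 normalized intensity), and on 1 C array, the highest at 5.21. The Col11a1 probe A_52_P507877, of a minor cartilage fibril chain, was well above background on 1 D+P array at 6.88 and on 0 C arrays. The Col8a2 probe A_66_P134043 was well above background on 1 C+P array at 5.65 and on 0 C arrays. The second Col17a1 probe, A_55_P1958906, reached 5.48 on 1 D+P array and 0 C arrays were well above background. The Col28a1 probe A_52_P257300 reached 5.63 on 1 D array, again with 0 in C. Apart from Col3a1, each of these rests on 1 array. With 3 arrays per group, no sample was tested for lying apart from its group.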

How the results depend on the processing

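The count of collagen genes past the adjusted threshold was 0 in all 6 comparisons and in each of 154 alternatives, including every single array left out (lowest and highest 0), the replicate block and the 5 arrays outside the accepted range left out. The smallest adjusted p of a collagen gene over them was 0.113. Over the alternatives that tested all 29 genes the count at an unadjusted p below 0.05 was less stable: 1 against 0 to 5 both for diabetes without pargyline and for pargyline in diabetic hearts, 2 against 1 to 3 for diabetes with pargyline, 4 against 2 to 5 averaged over pargyline (6 of 44 genes with no filter and 1 of 17 with the filter for bright probes), 0 against up to 6 in C+P against C and 0 against up to 2 for the interaction. Another scaling, normexp and the value table gave medians of all probes between -0.0448 and 0.0259. Samples were not paired by number in any comparison. The correlations of same-numbered arrays ran from -0.2038 to 0.1997. Those of differently numbered arrays were not set beside them, so they cannot decide whether numbers pair samples. With the replicate block the calls over all probes for diabetes averaged over pargyline went from 33 to 4, and those of D against C from 2 to 0, with 0 collagen genes in both.

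Of 37 named values, 24 kept their sign in all alternatives, and 35 of 907 alternative values had the opposite sign, in each case of a value not past the threshold. For diabetes averaged over pargyline, normexp gave 0.0105 for Col1a2, -0.1725 for Col6a1, -0.0036 for Col6a2, -0.0033 for Col6a3 and 0.0874 for Col8a1. The 75th percentile gave 0.0041 for Col1a2, array weights gave 0.0407 for Col14a1, and the mean over probes gave 0.1567 for Col3a1, -0.0401 for Col6a2 and -0.0185 for Col6a3. Normexp turned Col23a1 in D+P against D to 0.0103, and array weights turned Col26a1 in C+P against C to 0.0519. Without the 5 arrays, chosen after seeing the data, Col5a1 gave 0.0026, Col4a2 0.0342 and Col14a1 0.0286 averaged over pargyline, Col9a2 -0.229 in D+P against C+P, Col26a1 0.1426 in C+P against C and Col5a3 0.007 for the interaction. Leaving out single arrays gave -0.1448 to 0.0806 for Col1a2, -0.1325 to 0.1093 for Col3a1, -0.025 to 0.1139 for Col6a1, -0.0936 to 0.1474 for Col6a2 (all averaged over pargyline) and -0.6702 to 0.043 for Col26a1 in C+P against C. It gave r of -0.0884 to 0.537 for Col5a1 and Col5a2, and 0 to 1 of the 5 pairs of chains past the adjusted threshold, the 1 without C+P 1. The cause was not tested.

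The Col4a1 value rests in part on D 1. The estimate in D+P against C+P does not use that array, while its SE and adjusted p use a spread shared by all 12 arrays. Dim chains near background, among them Col14a1 and Col23a1, have no measured level here. Col22a1 was well above background on only 1 array. The slide block could not be fitted for the comparisons with pargyline, and within a slide it is the same fit for the simple comparisons of diabetes and for the interaction. For the averaged change with slide as a block, the smallest adjusted p was 0.313.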

Other observations

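For a pair of genes outside the collagen family, which were chosen after their values were seen, every D array was above every C array, as for 11.9% of all tested probes. Neither passed the adjusted threshold by limma. Such separation in D against C was seen for 2 of 9 tested collagen receptors and uptake genes higher and 0 lower, and for 3 of 10 fibroblast markers higher and 0 lower. Itga11, a collagen-binding integrin subunit of fibroblasts, read 7.39, 6.79 and 6.88 in C and 7.48, 7.73 and 7.49 in D, a difference of 0.54 (SE 0.21, adjusted p = 0.407 by limma). In C+P it read 7.71, 7.43 and 7.25 and in D+P 7.60, 7.17 and 7.37, which overlap. Lum, a proteoglycan that binds collagen fibrils, read 10.74, 10.83 and 11.12 in C, 11.04, 10.76 and 10.53 in C+P, 11.16, 11.37 and 11.41 in D, and 11.11, 11.22 and 11.33 in D+P. The difference was 0.42 in D against C (SE 0.18, adjusted p = 0.442 by limma). Its averaged change was 0.43 (SE 0.12, adjusted p = 0.249 by limma).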
